A study of Mus musculus with 12 samples.

Results

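The genes described here are the fibroblast growth factors (FGF) with their receptors, the platelet-derived growth factors (PDGF), and the vascular endothelial growth factors (VEGF) with placental growth factor. They were taken by symbol: every Fgf gene with a number, Fgfr1 to Fgfr4, Fgfrl1, Pdgfa to Pdgfd, Vegfa to Vegfd and Pgf. This gave 36 of the 53819 genes in the table, of which 24 passed the filter on low counts and were tested among 15698 genes. RNA was sequenced from wild-type (WT) mouse stromal cell preparations in 4 groups of 3 libraries each. In BM nonsorted, hind-limb and pelvic marrow cells grown on collagen I were taken after the first passage as they were. In BM sorted, the same kind of culture was first sorted for CD51+ and Sca-1+ cells lacking CD31, CD45, Ly6C and F4/80. In BAC nondepleted, bone-associated cells (BAC) released by collagenase I from hind-limb bone fragments were used whole, and in BAC depleted, cells carrying CD45, Ly6C or F4/80 were first removed with magnetic beads. The marrow cultures were kept in alpha MEM without ascorbic acid under hypoxia, and all libraries were made from 50 ng of total RNA with a low-input kit. The sources used here give neither the age nor the number of animals behind a library, nor the culture time of the bone-associated cells.

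FGF ligands bind tyrosine kinase receptors together with heparan sulphate and act mainly through the ERK cascade, and in bone they act on growth plate cartilage and on bone-forming cells. PDGF ligands act on stromal and mural cells through PDGFRA and PDGFRB. VEGF ligands act mainly on endothelial cells: VEGFA through KDR drives vessel growth, whereas VEGFC and VEGFD through FLT4 act on lymphatic vessels. A mesenchymal stromal cell is a non-haematopoietic support cell of marrow and bone, and a macrophage is a phagocyte that both purifications were built to remove.

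Libraries held 27937709 to 32164725 counts, of which the 36 genes took 0.0923% to 0.291%, the highest share being in BAC depleted 2. Log2 levels of libraries of a group correlated at 0.940 to 0.947 in BAC depleted and at 0.965 or more in the other groups, so BAC depleted was the least even group. BAC depleted 1 held 43406 counts of Xist and 0 counts of Y-linked genes, whereas the other 11 libraries held 0 to 16 counts of Xist and 4812 to 10999 counts of Y-linked genes. Mitochondrial genes took 1.82% to 2.62% of counts in BAC depleted and 1.08% to 1.36% elsewhere, and Thbs1 took 8.11% in BAC depleted 3. The 10 macrophage markers summed to 2639 to 3006 CPM (counts scaled by library size) in BM nonsorted and 6703 to 8611 CPM in BAC nondepleted. They summed to 2.91 to 4.47 CPM in BM sorted and 3.93 to 5.37 CPM in BAC depleted, where Ptprc, Itgam, C1qa, C1qb and Tyrobp had no count. The 8 mesenchymal stromal markers were detected in every group.

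Genes counted as called had an adjusted p (edgeR's quasi-likelihood test, Benjamini-Hochberg over all 15698 genes) under 0.05. Sorting of the marrow culture changed 1 of the 24 tested members (0 higher, 1 lower), where 6.23% of all tested genes were called, 0.166% as higher and 6.06% as lower. Depletion of the bone-associated cells changed 12 (11 higher, 1 lower), where 37.3% of all tested genes were called, 17.4% as higher and 19.9% as lower. Between the purified groups 16 differed, 4 higher in BM sorted and 12 higher in BAC depleted, against 47.4% of all tested genes (22.9% higher and 24.6% lower in BM sorted). Between the unpurified groups 10 differed, 4 higher in BM nonsorted and 6 higher in BAC nondepleted, against 31.7% of all tested genes (14.9% higher and 16.8% lower in BM nonsorted). The median log2 fold change of the members was 0.15 for sorting and 1.38 for depletion, where the medians of all tested genes were 0.00 and 0.05. It was -1.31 between the purified and -0.13 between the unpurified groups, where those of all tested genes were -0.02 and -0.01. These comparisons share libraries, so their counts are not independent of each other. Without BAC depleted 1, 27 members passed the filter, of which 13 were called for depletion and 19 between the purified groups. Over all genes 5498 and 7382 were called in that fit, against 5863 and 7447 with all libraries.

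**Figure D1:**
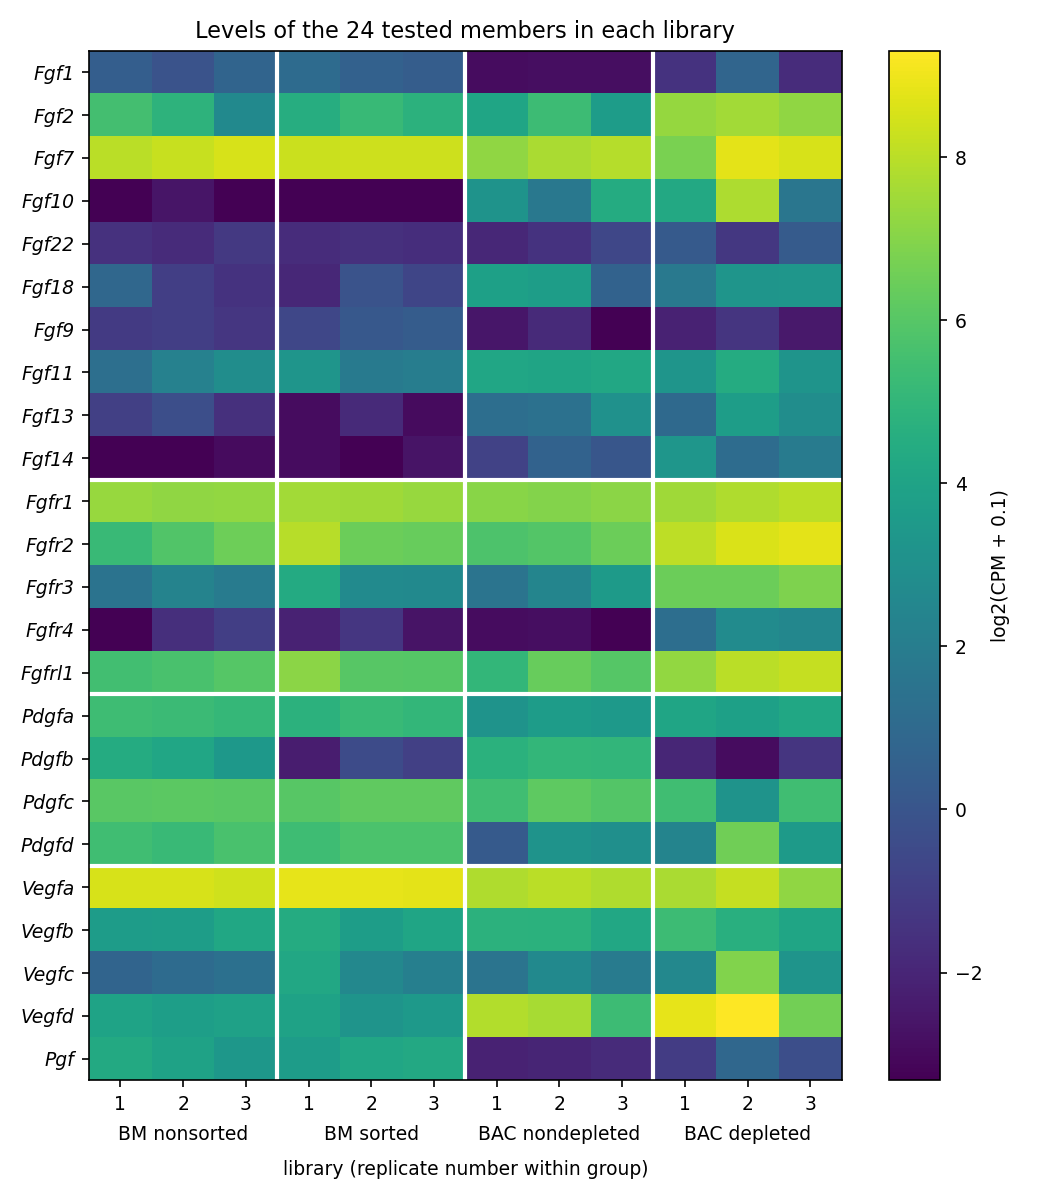
Levels of the 24 tested members, one row per gene, in the 12 libraries, one column per library in its group; colour is log2(CPM + 0.1). Pdgfb is bright in both unpurified groups and dark in both purified ones, Fgf10, Fgf14 and Vegfd are brighter in the bone-associated than in the marrow libraries, and Pgf the reverse.

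Fgf7, which encodes keratinocyte growth factor, a stromal ligand for epithelial FGFR2, was the most abundant of the 22 FGF genes in every group per kilobase. Its mean levels were 95.8, 99.0, 60.5 and 95.6 CPM per kilobase in BM nonsorted, BM sorted, BAC nondepleted and BAC depleted. It made up 88.9% to 96.3% of the summed FGF ligand level per kilobase in the marrow libraries, 65.7% to 81.3% in BAC nondepleted and 47.4% to 75.5% in BAC depleted. Fgf7 read 146, 205 and 239 CPM in BAC nondepleted and 109.8, 449 and 373 CPM in BAC depleted. BAC depleted 1 was below and the other two above all 3 nondepleted libraries, so the groups overlapped and the difference of 0.66 ± 0.41 (log2 fold change ± SE, adjusted p = 0.228) was not called. Without BAC depleted 1 the log2 fold change was 1.07 and was called (adjusted p = 0.00397). In the marrow, Fgf7 read 259, 302 and 371 CPM in BM nonsorted and 319, 319.7 and 326 CPM in BM sorted, and these ranges overlapped.

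Fgf2, basic FGF, a mitogen of stromal cells that leaves cells without a signal peptide, rose on depletion. It read 17.3, 40.6 and 12.4 CPM in BAC nondepleted and 159.8, 189.7 and 146 CPM in BAC depleted. All 3 depleted libraries lay above all 3 nondepleted ones, with a log2 fold change of 2.82 ± 0.64 (adjusted p = 0.00691), which became 3.47 without BAC nondepleted 2. In the marrow Fgf2 read 45.6, 28.2 and 6.26 CPM before and 23.1, 36.4 and 27.6 CPM after sorting. These overlapped (0.12 ± 0.60, adjusted p = 0.968), and BM sorted lay below BAC depleted (-2.51 ± 0.63, adjusted p = 0.00864). The difference between the sorting and the depletion effect on Fgf2 was -2.70 ± 0.86 and was not called (adjusted p = 0.0839). Fgf2 shares exon bases with Nudt6 on the opposite strand, and the strand setting of the counting is not given, so reads of the pair cannot be told apart.

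Fgf1, acidic FGF, which can bind all FGF receptors, was a low transcript. It read 1.26, 0.826 and 1.58 CPM in BM nonsorted, 2.05, 1.41 and 1.23 CPM in BM sorted and 0.254, 1.63 and 0.208 CPM in BAC depleted, and had 1 count in each BAC nondepleted library. Counted over the groups, the ratio of BAC depleted to BAC nondepleted was 19.6 (95% counting interval 6.40 to 97.9, adjusted p of the fit = 0.00599). That of BM nonsorted to BAC nondepleted was 34.3 (11.5 to 169, adjusted p = 0.00357). The purified groups overlapped and their difference was not called (1.15 ± 0.65, adjusted p = 0.171). BAC depleted 2 held most of the Fgf1 counts of its group: without it the depletion ratio was 6.53 (1.79 to 35.7), and Fgf1 was called higher in BM sorted than in BAC depleted (2.72, adjusted p = 0.000784).

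Fgf10, a mesenchymal ligand of FGFR2 that acts in limb and fat development, was a transcript of the bone-associated cells. It had 0 counts in all 3 BM sorted libraries and 2 counts in BM nonsorted, both in BM nonsorted 2. In BAC nondepleted it read 8.83, 3.23 and 21.99 CPM, and in BAC depleted 19.9, 215 and 3.04 CPM, so the bone-associated groups overlapped and BAC depleted 2 stood far above the rest. Fgf10 was at least 2586-fold lower in BM sorted than in BAC depleted, with 3 counts over the group as the floor (adjusted p = 0.00413), and BAC nondepleted exceeded BM nonsorted with a count ratio of 546 (151 to 4512, adjusted p = 0.023). The second call did not hold without BM nonsorted 1, 2 or 3 (fitted values -8.35, -11.4 and -8.32, adjusted p = 0.0765, 0.0924 and 0.0734) or without BAC nondepleted 3 (-7.95, adjusted p = 0.0502). The count ratio of that comparison was 301 without BAC nondepleted 3, and at least 247 without BM nonsorted 2. BAC depleted 2 held 6081 of the 6780 Fgf10 counts of its group. Without it the bound between the purified groups was 403-fold, against 1685-fold to 3759-fold without any other library of these groups, and the depletion effect, which was called in neither case, was 0.01 in place of 2.81. Fgf22, a ligand that organises synapses, stayed at or below 1.12 CPM and was lower in BM sorted than in BAC depleted (-1.94 ± 0.55, adjusted p = 0.0144), a call lost without BM sorted 3 (-1.92, adjusted p = 0.0514). Its exons overlap those of Rnf126 on the opposite strand, so its low level is uncertain.

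Fgf18, a ligand of growth plate cartilage and bone, was also higher in the bone-associated cells. It read 1.78, 0.413 and 0.263 CPM in BM nonsorted, 0.168, 0.839 and 0.521 CPM in BM sorted, 14.6, 12.8 and 1.45 CPM in BAC nondepleted and 3.31, 9.51 and 9.83 CPM in BAC depleted. All BAC depleted libraries lay above all BM sorted ones (-3.87 ± 1.01 for BM sorted minus BAC depleted, adjusted p = 0.0106). BAC nondepleted 3 lay below BM nonsorted 1, so the unpurified groups overlapped (-3.55 ± 0.98, adjusted p = 0.0217). That call was lost for Fgf18 without BM nonsorted 2 (-3.23, adjusted p = 0.081), BM nonsorted 3 (-3.12, adjusted p = 0.0675), BAC nondepleted 1 (-3.12, adjusted p = 0.0641) or BAC nondepleted 2 (-3.29, adjusted p = 0.0598), and without BM nonsorted 1 the value was -4.82. Fgf9, a ligand made by mesenchyme and epithelia, went the other way at low level. It read 0.537, 1.02 and 1.19 CPM in BM sorted and 0.127, 0.283 and 0.0833 CPM in BAC depleted, without overlap (2.44 ± 0.66, adjusted p = 0.0122), and the value was 3.06 without BAC depleted 2.

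The Fgf11, Fgf13 and Fgf14 genes belong to the intracellular FGF homologous factors, which are not secreted and bind voltage-gated sodium channels. All 3 tested members were lower in BM nonsorted than in BAC nondepleted, and Fgf13 and Fgf14 also in BM sorted than in BAC depleted. Fgf13 read 0.0336, 0.18 and 0.0306 CPM in BM sorted and 1.88, 12.9 and 7.17 CPM in BAC depleted (-6.40 ± 1.02, adjusted p = 0.000785), and the value was -7.67 without BM sorted 2 and -5.70 without BAC depleted 2. Fgf14 had 3 counts over BM sorted against 9.73, 2.09 and 3.75 CPM in BAC depleted, a count ratio of 174 in favour of BAC depleted (59.01 to 845, adjusted p = 0.000267). That ratio was 91.0 without BAC depleted 1 and 343 without BM sorted 3, and 113 without BM sorted 2. These groups did not overlap for either gene.

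Between the unpurified groups, Fgf11 read 2.34, 4.64 and 7.11 CPM in BM nonsorted and 17.5, 16.6 and 19.1 CPM in BAC nondepleted (-1.92 ± 0.50, adjusted p = 0.017). The call for Fgf11 was lost without BM nonsorted 1 (-1.59, adjusted p = 0.0541) or BM nonsorted 2 (-1.91, adjusted p = 0.0585). Fgf13 was lower in BM nonsorted (-3.22 ± 0.84, adjusted p = 0.0168), a call lost without BM nonsorted 1 (-3.17, adjusted p = 0.0583), BM nonsorted 3 (-2.90, adjusted p = 0.0591) or BAC nondepleted 3 (-2.37, adjusted p = 0.0538). Fgf14 had 1 count over BM nonsorted and 79 over BAC nondepleted, a ratio of 92.8 (16.2 to 3711, adjusted p = 0.0031), or at least 20.2 without BM nonsorted 3, the library with that count. On depletion Fgf14 rose by 2.44 ± 0.68 (adjusted p = 0.0186), with 0.470, 1.45 and 0.953 CPM before it, and BAC depleted 1 was the highest library. Omission of BAC depleted 1 ended that call (1.60, adjusted p = 0.0643), as did that of BAC nondepleted 1 (2.10, adjusted p = 0.0677) or BAC nondepleted 3 (2.42, adjusted p = 0.0551).

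The other 12 FGF ligand genes were not tested. Fgf3, Fgf4, Fgf8 and Fgf16, ligands known mainly from the embryo and heart, had 0 counts in all 12 libraries. A library count of 0 allows a level of up to 0.125 CPM, for counting error only. Fgf5, Fgf12, Fgf15, Fgf17 and Fgf20 had at most 7 counts in a library. Fgf6, known from skeletal muscle, had at most 23 counts, and the endocrine factor Fgf21 had at most 14. Fgf23, the phosphate-regulating hormone of osteocytes, had at most 39 counts, in BM sorted 1, where it read 1.31 CPM against 0.2995 and 0.398 CPM in the other BM sorted libraries. The 4 osteocyte markers summed to 0.492 to 6.58 CPM in the marrow libraries, 0.909 to 5.54 CPM in BAC nondepleted and 9.62 to 23.8 CPM in BAC depleted. Fgf23 read at most 0.191 CPM in BAC depleted, the group with the highest osteocyte sum. Sost was at 0 in BM sorted and in both bone-associated groups.

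All 5 FGF receptor genes rose on depletion, as did 17.4% of all tested genes. Fgfr1 to Fgfr4 encode tyrosine kinase receptors, and Fgfrl1 encodes a receptor that binds FGF but lacks the kinase. To show what precedes the start sites of the receptors that rose most, the 250 bases before them are printed from RefSeq (build GRCm38.p6), 5′ to 3′ on the gene's strand. An entry matched by symbol was kept for 28 of the 36 genes, after the entries of a single chromosome were left out. Capitals mark the letters of the GC box, GGGCGG, and of the TATA box, TATAAA, each searched for on both strands of the window. Fgfr2 lies at chr7:130266809-130267058 on the minus strand, Fgfr3 (the first of its windows) at chr5:33721474-33721723 on the plus strand, Fgfr4 at chr13:55152568-55152817 on the plus strand and Fgfrl1 at chr5:108693979-108694228 on the plus strand.
Fgfr2: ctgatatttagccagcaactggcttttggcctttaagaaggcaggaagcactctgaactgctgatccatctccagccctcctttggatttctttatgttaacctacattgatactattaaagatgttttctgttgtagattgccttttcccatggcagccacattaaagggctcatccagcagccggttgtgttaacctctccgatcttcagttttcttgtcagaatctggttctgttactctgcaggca
Fgfr3: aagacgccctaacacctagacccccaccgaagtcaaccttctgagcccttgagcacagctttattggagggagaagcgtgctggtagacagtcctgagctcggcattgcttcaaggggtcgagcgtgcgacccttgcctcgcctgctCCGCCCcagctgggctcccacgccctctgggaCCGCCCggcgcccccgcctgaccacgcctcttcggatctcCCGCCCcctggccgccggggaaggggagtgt
Fgfr4: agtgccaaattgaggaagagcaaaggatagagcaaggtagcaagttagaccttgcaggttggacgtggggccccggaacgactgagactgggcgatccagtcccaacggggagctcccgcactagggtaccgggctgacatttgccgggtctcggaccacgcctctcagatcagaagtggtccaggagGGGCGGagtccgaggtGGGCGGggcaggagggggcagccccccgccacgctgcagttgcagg
Fgfrl1: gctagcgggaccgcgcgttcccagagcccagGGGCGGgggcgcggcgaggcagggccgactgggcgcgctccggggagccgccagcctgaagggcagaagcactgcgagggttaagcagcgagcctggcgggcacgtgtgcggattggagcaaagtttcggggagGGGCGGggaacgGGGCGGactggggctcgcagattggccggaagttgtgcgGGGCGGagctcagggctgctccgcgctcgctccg
The windows of Fgfr3, Fgfr4 and Fgfrl1 held 3, 2 and 4 GC boxes and had a GC content of 66.8%, 64.0% and 73.6%. The Fgfr2 window held 0 and had a GC content of 44.0%, so the windows shown do not share this feature. This rests on the starts shown, and Fgfr1 had no window. GC boxes were present in 32.7% of all 32851 windows of this length, whose median GC content was 52.4%. A match is a description of the letters and not of a bound site.

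Fgfr3, the receptor of cartilage and bone-forming cells, read 2.75, 5.31 and 11.5 CPM in BAC nondepleted and 89.9, 89.4 and 115 CPM in BAC depleted. Every depleted library was several times above every nondepleted one, and Fgfr3 rose by 3.91 ± 0.61 on the log2 scale (adjusted p = 0.000847), or by 4.6 without BAC nondepleted 3. Fgfr4, a receptor best known from liver and muscle progenitors, had 2 counts over BAC nondepleted and 395 over BAC depleted, where it read 2.23, 6.65 and 5.71 CPM. The count ratio of Fgfr4 was 197 (54.2 to 1633, adjusted p = 0.000845). Fgfr2, the receptor of osteoprogenitors and epithelia, read 54.0, 60.2 and 87.3 CPM before and 268, 381 and 441 CPM after depletion, without overlap (2.44 ± 0.48, adjusted p = 0.00309). Fgfrl1 read 33.3, 81.7 and 62.2 CPM before and 151, 253 and 292 CPM after, also without overlap (1.98 ± 0.40, adjusted p = 0.00383). Fgfr1, the main receptor of mesenchymal cells, rose least, from 133, 123 and 137 CPM to 183.5, 222 and 258 CPM (0.76 ± 0.12, adjusted p = 0.00105). For each of the 5 receptors the call held without each of the 12 libraries in turn and under every other setting tried.

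In the marrow none of the receptors was called on sorting, where 6.23% of all tested genes were. Fgfr3 read 2.74, 4.96 and 3.78 CPM in BM nonsorted and 21.02, 6.44 and 6.34 CPM in BM sorted (1.56 ± 0.57, adjusted p = 0.202). Fgfr2 read 37.5, 58.2 and 91.7 CPM before and 246, 88.1 and 83.2 CPM after sorting (1.16 ± 0.46, adjusted p = 0.245). BM sorted 1 was the high library for both, and for Fgfrl1, which read 136, 65.9 and 63.3 CPM in BM sorted and 45.1, 52.0 and 62.1 CPM in BM nonsorted. Fgfr1 read 161.5, 148.5 and 150.4 CPM before and 187, 179 and 163 CPM after sorting. The Fgfr1 ranges did not overlap, but the log2 fold change of 0.20 ± 0.12 was not called (adjusted p = 0.539). Fgfr4 stayed at or below 0.410 CPM in all marrow libraries.

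All 5 receptors were called lower in BM sorted than in BAC depleted, as were 24.6% of all tested genes. The log2 fold change was -4.84 ± 0.93 for Fgfr4 (adjusted p = 0.00212) and -3.12 ± 0.59 for Fgfr3 (adjusted p = 0.00191), and both calls held without each library in turn. Without BM sorted 1 the Fgfr3 value was -3.93, and without BM sorted 2 the Fgfr4 value was -5.60. For Fgfrl1 it was -1.39 ± 0.39 (adjusted p = 0.0151), lost without BM sorted 2 (-1.23, adjusted p = 0.0603) or BM sorted 3 (-1.20, adjusted p = 0.0641).

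The call for Fgfr2 (-1.38 ± 0.46, adjusted p = 0.0306) was less firm. It was lost without BM sorted 2 (-1.15, adjusted p = 0.106), BM sorted 3 (-1.12, adjusted p = 0.109), BAC depleted 2 (-1.35, adjusted p = 0.0574) or BAC depleted 3 (-1.23, adjusted p = 0.0792), and the value was -2.08 without BM sorted 1. The Fgfr1 groups overlapped (-0.33 ± 0.12, adjusted p = 0.0484), and this call was lost in 11 of the 12 omissions of a library and held only without BAC depleted 1. Between the unpurified groups no receptor was called, where 31.7% of all tested genes were. Fgfr1, Fgfr2 and Fgfr3 have exons overlapping another gene, for Fgfr2 the coding gene Ctbp2 on the same strand and for Fgfr1 and Fgfr3 a gene on the opposite strand, so counts of these receptors are uncertain by that overlap.

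Per kilobase, the make-up of the receptor transcripts shifted as well. Fgfr1 took 13.6% to 16.6% of the summed receptor level in BAC depleted and 20.0% to 44.7% in the other groups. The ratio of Fgfr2 to Fgfr1 per kilobase was 0.388, 0.467 and 0.610 in BAC nondepleted and 1.40, 1.64 and 1.63 in BAC depleted. These did not overlap, and an exact two-sided permutation test gave p = 0.1, the smallest that 3 against 3 libraries allow. Fgfrl1 had the highest mean level per kilobase of the 5 in every group. That rank depends on the length used, all annotated exons of a gene merged, which was 9.875 kilobases for Fgfr1 and 2.782 for Fgfrl1. In CPM, Fgfr1 had the highest mean in BM nonsorted (153 against 53.1 for Fgfrl1), BM sorted (176 against 88.4) and BAC nondepleted (131 against 59.1). In BAC depleted it was Fgfr2 (363 against 232 for Fgfrl1). The mean share of Fgfrl1 per kilobase was 46.1% in BM nonsorted, 48.35% in BM sorted, 49.15% in BAC nondepleted and 52.87% in BAC depleted. In BAC depleted its mean was 83.5 CPM per kilobase against 35.2 for Fgfr2, 22.4 for Fgfr1, 13.7 for Fgfr3 and 1.37 for Fgfr4.

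**Figure D2:**
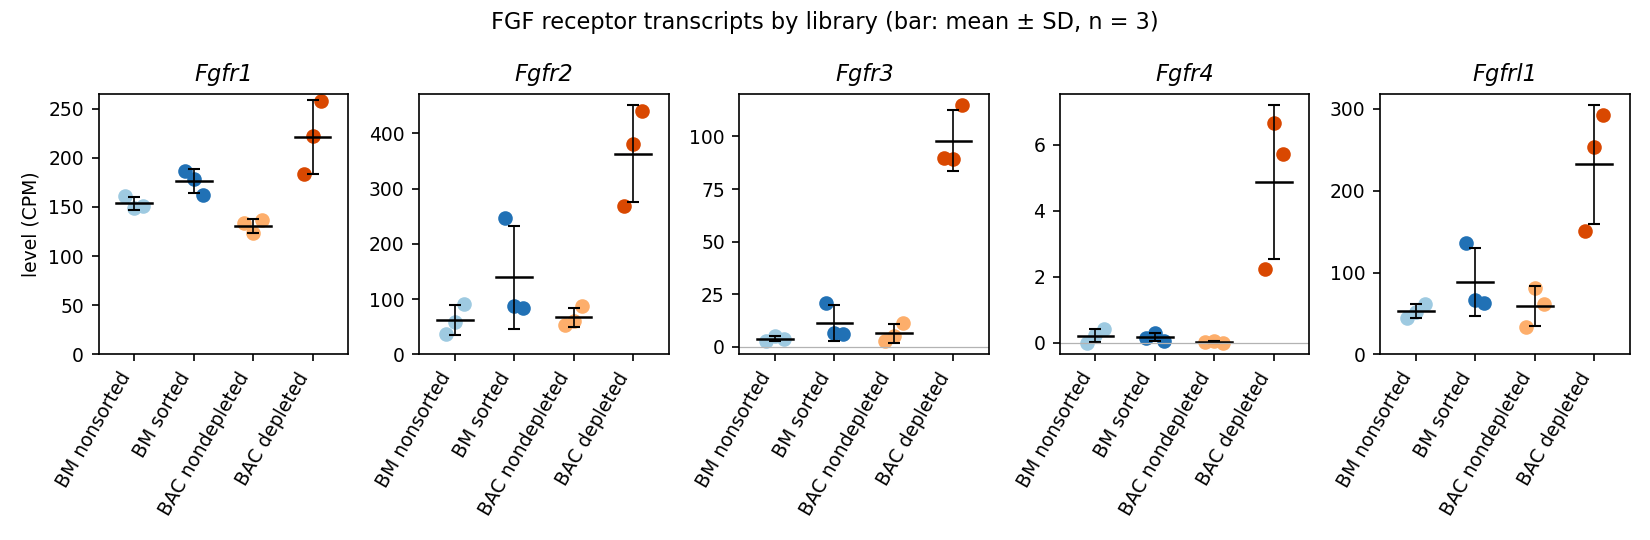
Levels of the 5 FGF receptor transcripts in CPM (linear axes from 0), one point per library, with the mean and SD of the 3 libraries of each group as bars. In each panel the 3 BAC depleted points lie above the 3 BAC nondepleted points, for Fgfr3 at 89.4 to 115 CPM against 2.75 to 11.5 CPM.

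Markers of several cell types moved with the receptors, those of cartilage in the largest number. The 6 chondrocyte markers summed to 1317 to 4555 CPM in BAC nondepleted and 8585 to 29650 CPM in BAC depleted, 5 of the 6 being higher and none lower on depletion. They summed to 1105 to 3947 CPM in BM sorted, 4 of 6 being lower and 1 higher than in BAC depleted, and none of the 6 was at 0 in any group. Of the 5 osteoblast markers tested 3 rose and none fell on depletion, Sp7, Ibsp and Alpl, at a list median log2 fold change of 1.84. The osteoblast sum, which follows the most abundant markers, was 4179 to 6994 CPM before and 4512, 671 and 360 CPM after. Of the other lists, 2 of 2 adipocyte, 2 of 4 endothelial, 2 of 6 smooth muscle and pericyte and 1 of 2 osteocyte markers tested rose and none fell. Of the 8 mesenchymal stromal markers 2 rose and 1 fell, and of the 4 skeletal muscle markers tested 0 were called. Of all tested genes 17.4% rose and 19.9% fell on depletion. The part of any of these cells in the receptor levels was not tested, and in bulk RNA more cells of a type and more RNA per cell cannot be told apart. The library with the highest chondrocyte sum, BAC depleted 3, also had the highest Fgfr1, Fgfr2, Fgfr3 and Fgfrl1 levels of its group. BAC depleted 2 had the lowest sum (8585 CPM) but the highest Fgfr4, and it exceeded BAC depleted 1 (10510 CPM) in Fgfr1, Fgfr2 and Fgfrl1. BM sorted 1 had the lowest sum of its group (1105 CPM) and the highest Fgfr1, Fgfr2, Fgfr3 and Fgfrl1. Such sums follow the most abundant markers of a list, and whether they go with the receptor levels was not tested.

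Pdgfb encodes the PDGF-B chain, which recruits mural cells through PDGFRB and is made by endothelial cells, platelets and macrophages. It was the one member called on sorting, and it fell in both purifications. Pdgfb read 21.4, 17.6 and 10.7 CPM in BM nonsorted and 0.101, 0.629 and 0.429 CPM in BM sorted. In BAC nondepleted it read 26.4, 32.5 and 31.2 CPM, and in BAC depleted 0.159, 0.0354 and 0.292 CPM. Neither pair of groups overlapped. Pdgfb fell by 5.39 ± 0.55 on the log2 scale on sorting (adjusted p = 0.0001) and fell by 7.54 ± 0.63 on depletion (adjusted p = 1.3e-05), calls that held without each library in turn. The depletion value was -8.19 without BAC depleted 3, and the purified groups did not differ beyond the test's threshold (1.30 ± 0.69, adjusted p = 0.146).

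The macrophage markers fell with Pdgfb, 10 of 10 in each purification, from 2639 to 3006 CPM in sum to 2.91 to 4.47 CPM on sorting and from 6703 to 8611 CPM to 3.93 to 5.37 CPM on depletion. The platelet and megakaryocyte markers summed to 50.0 to 55.2 CPM and 89.5 to 144 CPM before and at most 10.1 CPM after, with Pf4 alone called of the 4 tested, and Gp6 at 0 throughout. The endothelial markers summed to at most 4.91 CPM in every group other than BAC depleted, where the sum was 6.30 to 51.5 CPM, and Sox17 was at 0 throughout. That sum was carried by Erg, at 49.6 CPM in BAC depleted 3, and by Tek, at 5.02 CPM in BAC depleted 2. Cdh5, the endothelial cadherin, read at most 0.254 CPM in BAC depleted, with 0 counts in 2 of its libraries, and Pecam1 at most 0.778 CPM. The part of macrophages, platelets and endothelial cells in the Pdgfb level was not tested.

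**Figure D3:**
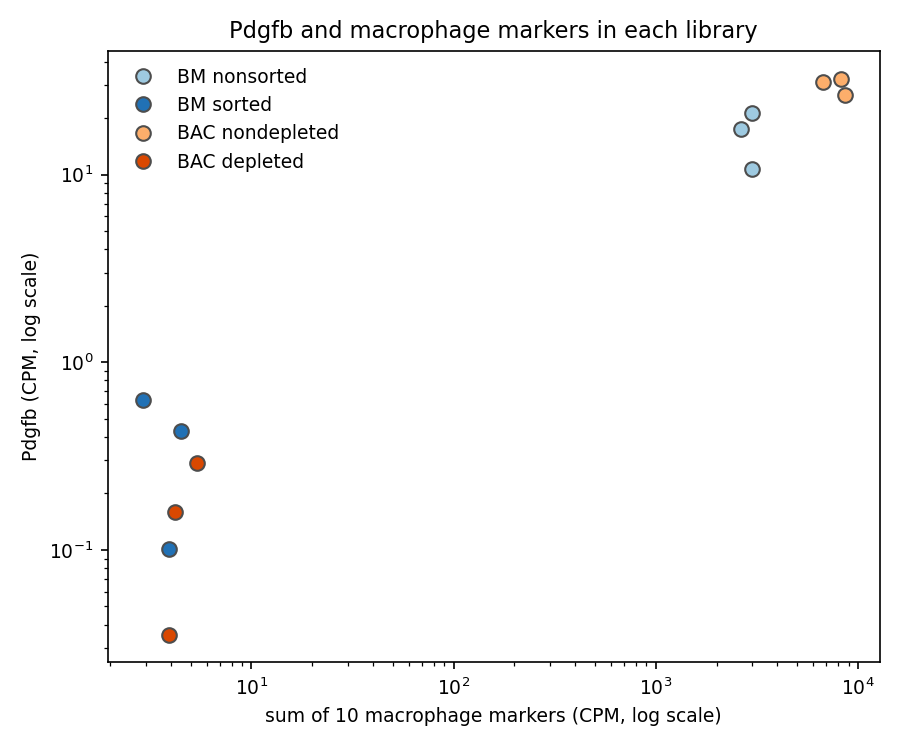
Pdgfb level against the sum of 10 macrophage markers, both in CPM on log axes, one point per library and one colour per group. The 6 unpurified libraries lie at 10.7 to 32.5 CPM of Pdgfb with marker sums of 2639 CPM or more, and the 6 purified ones at 0.629 CPM or less with sums of 5.37 CPM or less; the groups form separate clusters, so no correlation is given.

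Pdgfa encodes the PDGF-A chain, which acts through PDGFRA. It read 41.0, 38.3 and 33.5 CPM in BM nonsorted, 27.8, 35.8 and 33.3 CPM in BM sorted, 8.83, 12.6 and 11.2 CPM in BAC nondepleted and 17.2, 14.3 and 18.6 CPM in BAC depleted. Every marrow library lay above every bone-associated one. Pdgfa was higher in BM nonsorted than in BAC nondepleted by 1.79 ± 0.16 (adjusted p = 0.000194) and in BM sorted than in BAC depleted by 0.95 ± 0.16 (adjusted p = 0.00095). Both calls held without each library in turn. On depletion Pdgfa rose by 0.62 ± 0.16 (adjusted p = 0.013), a call lost without BAC nondepleted 1 (0.48, adjusted p = 0.0521), and on sorting it differed by -0.22 ± 0.16 (adjusted p = 0.62).

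Pdgfc and Pdgfd encode PDGF chains that are secreted latent and activated by proteolysis. Pdgfd read 42.5, 37.3 and 50.3 CPM in BM nonsorted, 42.3, 52.1 and 52.9 CPM in BM sorted and 1.07, 8.90 and 7.78 CPM in BAC nondepleted. In BAC depleted it read 5.15, 93.9 and 11.5 CPM, so the second library of this group held a level above the marrow and the other two stayed near the nondepleted level. The unpurified groups did not overlap for Pdgfd, but the difference of 2.88 ± 1.0 missed the threshold (adjusted p = 0.051). Without BAC depleted 2, whose spread enters the common fit, it was called at 2.88 (adjusted p = 0.00718), as was BM sorted against BAC depleted at 2.57 (adjusted p = 0.0152).

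Pdgfc read 67.9, 69.8 and 66.3 CPM in BM nonsorted and 66.1, 75.7 and 74.0 CPM in BM sorted. It read 42.5, 71.5 and 61.5 CPM in BAC nondepleted and 43.4, 8.88 and 43.2 CPM in BAC depleted, where BAC depleted 2 was low. Pdgfc was above BAC depleted in every BM sorted library (1.18 ± 0.46, adjusted p = 0.0554), and without BAC depleted 2 the difference was 0.73 and was called (adjusted p = 0.00911). In BAC depleted 2, Pdgfd took 82.5% and Pdgfc 4.83% of the summed PDGF level per kilobase. In BAC depleted 1 and 3, Pdgfd took 10.4% and 20.1%, and Pdgfc 54.3% and 46.7%. In the marrow, Pdgfa, Pdgfc and Pdgfd took like shares of 25.2% to 39.8% per kilobase.

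Vegfa, the main angiogenic factor and a transcript induced by hypoxia, was the most abundant VEGF gene per kilobase in the marrow. It read 369.5, 367.5 and 332 CPM in BM nonsorted, 452, 457 and 440.5 CPM in BM sorted, 224, 252 and 222 CPM in BAC nondepleted and 210.2, 294 and 148 CPM in BAC depleted. The marrow libraries all lay above the bone-associated ones. Vegfa was higher in BM sorted than in BAC depleted by 1.05 ± 0.20 (adjusted p = 0.00205), a call that held without each library in turn. BM nonsorted exceeded BAC nondepleted by 0.61 ± 0.20 (adjusted p = 0.0394), and this call was lost in 9 of the 12 omissions and held without any one of the 3 BAC depleted libraries. The BM sorted libraries lay above the BM nonsorted ones, but the difference of 0.34 ± 0.20 was not called (adjusted p = 0.514).

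Vegfd, a ligand of FLT4 that drives lymphatic growth, marked the bone-associated cells. It read 15.9, 13.4 and 14.95 CPM in BM nonsorted and 15.5, 9.17 and 11.4 CPM in BM sorted. In BAC nondepleted it read 233, 198 and 40.8 CPM, and in BAC depleted 460.5, 632 and 98.3 CPM. The third library was the lowest in both bone-associated groups and still lay above all 6 marrow libraries. Vegfd was lower in BM sorted than in BAC depleted (-5.05 ± 0.79, adjusted p = 0.000696) and in BM nonsorted than in BAC nondepleted (-3.41 ± 0.73, adjusted p = 0.00746), and both calls held without each library in turn. The bone-associated groups overlapped (1.34 ± 0.67, adjusted p = 0.143).

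Pgf, placental growth factor, a ligand of FLT1, had the reverse pattern. It read 20.4, 15.6 and 10.3 CPM in BM nonsorted and 12.6, 17.5 and 19.8 CPM in BM sorted, but 0.134, 0.145 and 0.191 CPM in BAC nondepleted and 0.382, 1.73 and 0.708 CPM in BAC depleted. Every marrow library lay above every bone-associated one. Pgf was higher in BM nonsorted than in BAC nondepleted by 6.59 ± 0.59 (adjusted p = 0.000189) and in BM sorted than in BAC depleted by 4.14 ± 0.49 (adjusted p = 0.000159), or 4.95 without BAC depleted 2. From its low level Pgf rose on depletion by 2.56 ± 0.59 (adjusted p = 0.0071), or by 1.75 without BAC depleted 2 (adjusted p = 0.0191).

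To set these opposite genes side by side, the 250 bases before their starts are printed in the same way, for Vegfd at chrX:164373272-164373521 on the plus strand and for the start of Pgf farthest upstream at chr12:85177314-85177563 on the minus strand.
Vegfd: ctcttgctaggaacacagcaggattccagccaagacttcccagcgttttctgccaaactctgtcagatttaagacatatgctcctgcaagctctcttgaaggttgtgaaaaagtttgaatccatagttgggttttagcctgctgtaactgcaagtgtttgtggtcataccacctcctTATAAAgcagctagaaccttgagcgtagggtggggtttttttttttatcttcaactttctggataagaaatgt
Pgf: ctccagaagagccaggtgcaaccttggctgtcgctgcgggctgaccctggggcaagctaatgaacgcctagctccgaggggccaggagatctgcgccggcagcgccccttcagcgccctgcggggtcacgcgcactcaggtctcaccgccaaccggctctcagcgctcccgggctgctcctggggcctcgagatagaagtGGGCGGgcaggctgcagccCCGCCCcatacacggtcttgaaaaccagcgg
The Vegfd window held TATAAA once, found in 12.4% of all windows, and 0 GC boxes, at a GC content of 42.4%. The Pgf window held 2 GC boxes and no TATA box letters, and its GC content was 68.4%. The window of the other Pgf start listed, chr12:85175983-85176232, held 0 GC boxes at a GC content of 66.4%, so the difference from Vegfd in GC boxes rests on the start shown.

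Vegfc, the other ligand of FLT4, turned on single libraries. It read 2.75, 6.22 and 3.77 CPM in BAC nondepleted and 5.88, 119 and 9.29 CPM in BAC depleted. BAC depleted 2 stood apart and BAC depleted 1 lay within the nondepleted range, so the groups overlapped although the difference was called (3.39 ± 1.08, adjusted p = 0.0316). Omission of BAC depleted 2 ended the call (0.83, adjusted p = 0.298), as did that of BAC nondepleted 1, 2 or 3 (3.15, 3.77 and 3.31, adjusted p = 0.0996, 0.0657 and 0.0896). In the marrow, Vegfc read 1.60, 2.003 and 2.40 CPM before and 18.7, 5.84 and 4.26 CPM after sorting, without overlap but with a high first library (2.26 ± 1.05, adjusted p = 0.363). Without BAC depleted 2 in the common fit the same difference was called (2.26, adjusted p = 0.0441). Vegfb, a ligand of FLT1 with little angiogenic effect, read 12.6 to 21.5 CPM in the marrow and 17.1 to 39.7 CPM in the bone-associated libraries and was called in no comparison (adjusted p = 0.1 between the unpurified groups).

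Per kilobase, Vegfa took 76.8% to 84.0% of the summed VEGF level in the marrow libraries, 31.2% to 63.2% in BAC nondepleted and 17.3% to 38.4% in BAC depleted. Vegfd took 3.0% to 6.23% in the marrow, 20.7% to 57.8% in BAC nondepleted and 45.3% to 71.5% in BAC depleted. The ratio of Vegfd to Vegfa per kilobase was 0.0357 to 0.0802 in the marrow, 1.85, 1.40 and 0.327 in BAC nondepleted and 3.90, 3.83 and 1.18 in BAC depleted. Vegfd thus exceeded Vegfa per kilobase in 5 of the 6 bone-associated libraries and in none of the marrow ones. Exact two-sided permutation tests of the log2 ratio gave p = 0.1 for both niche comparisons, the smallest that 3 against 3 allow, and also for sorting, where the difference was -0.67 without overlap. The exact permutation test gave p = 0.3 for depletion.

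**Figure D4:**
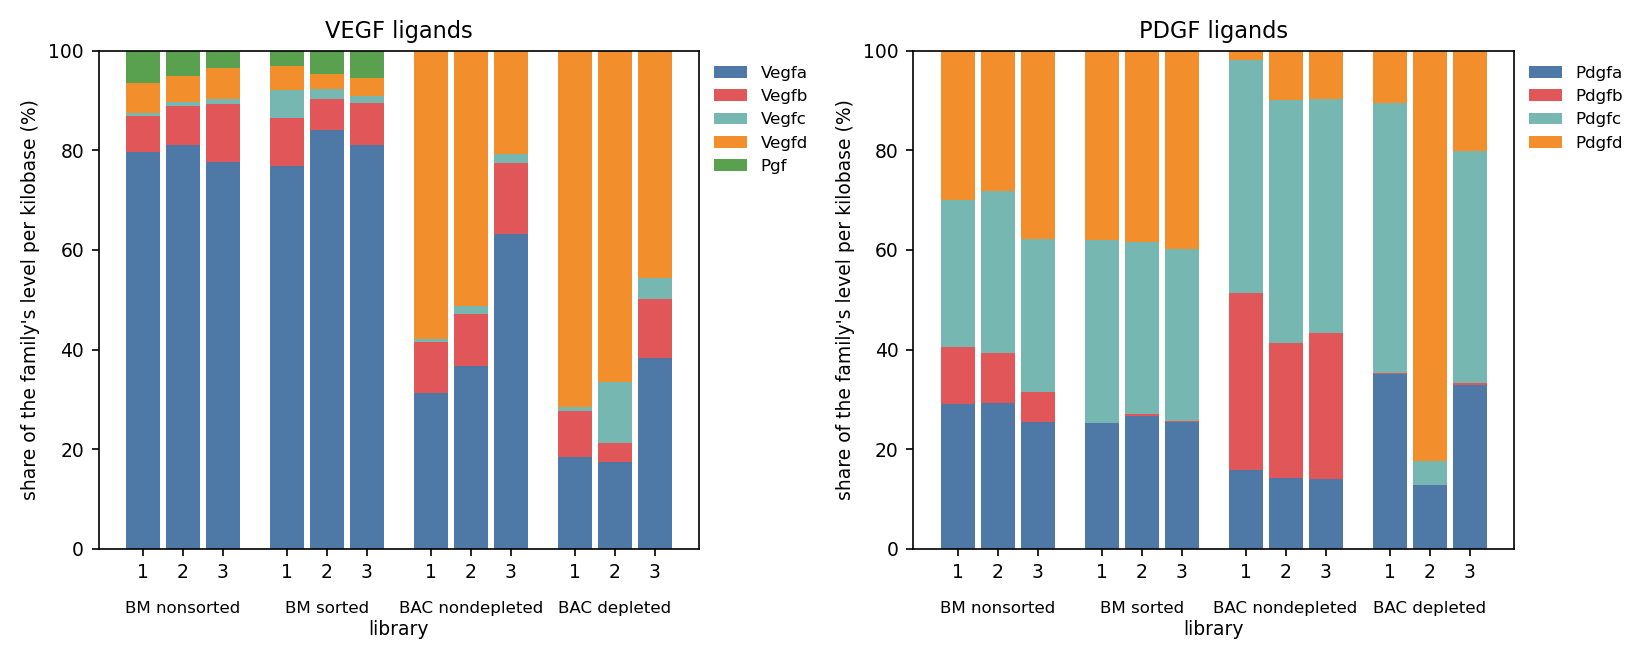
Share of each VEGF ligand (left) and PDGF ligand (right) in its family's summed level per kilobase, in percent, one stacked bar per library. Vegfa fills 76.8% or more of every marrow bar, Vegfd takes 20.7% to 71.5% of the bone-associated bars, and Pdgfd fills 82.5% of the second BAC depleted bar.

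The effects of sorting and depletion were also tested against each other. Of all tested genes 8.06% were called, 5.08% with a higher and 2.99% with a lower effect of sorting, and of the 24 members 2 were called, both with a lower effect of sorting. For Fgfr4 the difference was -7.79 ± 1.53 (adjusted p = 0.0169), a value fitted against 2 counts in BAC nondepleted. It lost its call without BM nonsorted 3 (-6.86, adjusted p = 0.05) or BM sorted 3 (-7.39, adjusted p = 0.0503), and was -8.51 without BM sorted 2. For Pdgfa the difference was -0.83 ± 0.22 (adjusted p = 0.0486), a call lost in 11 of the 12 omissions, with an adjusted p of up to 0.112. The other receptors had negative differences that were not called, among them Fgfr3 with -2.36 ± 0.79 (adjusted p = 0.0973), so Fgfr4 was the one receptor whose response passed the test of a difference.

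**Figure D5:**
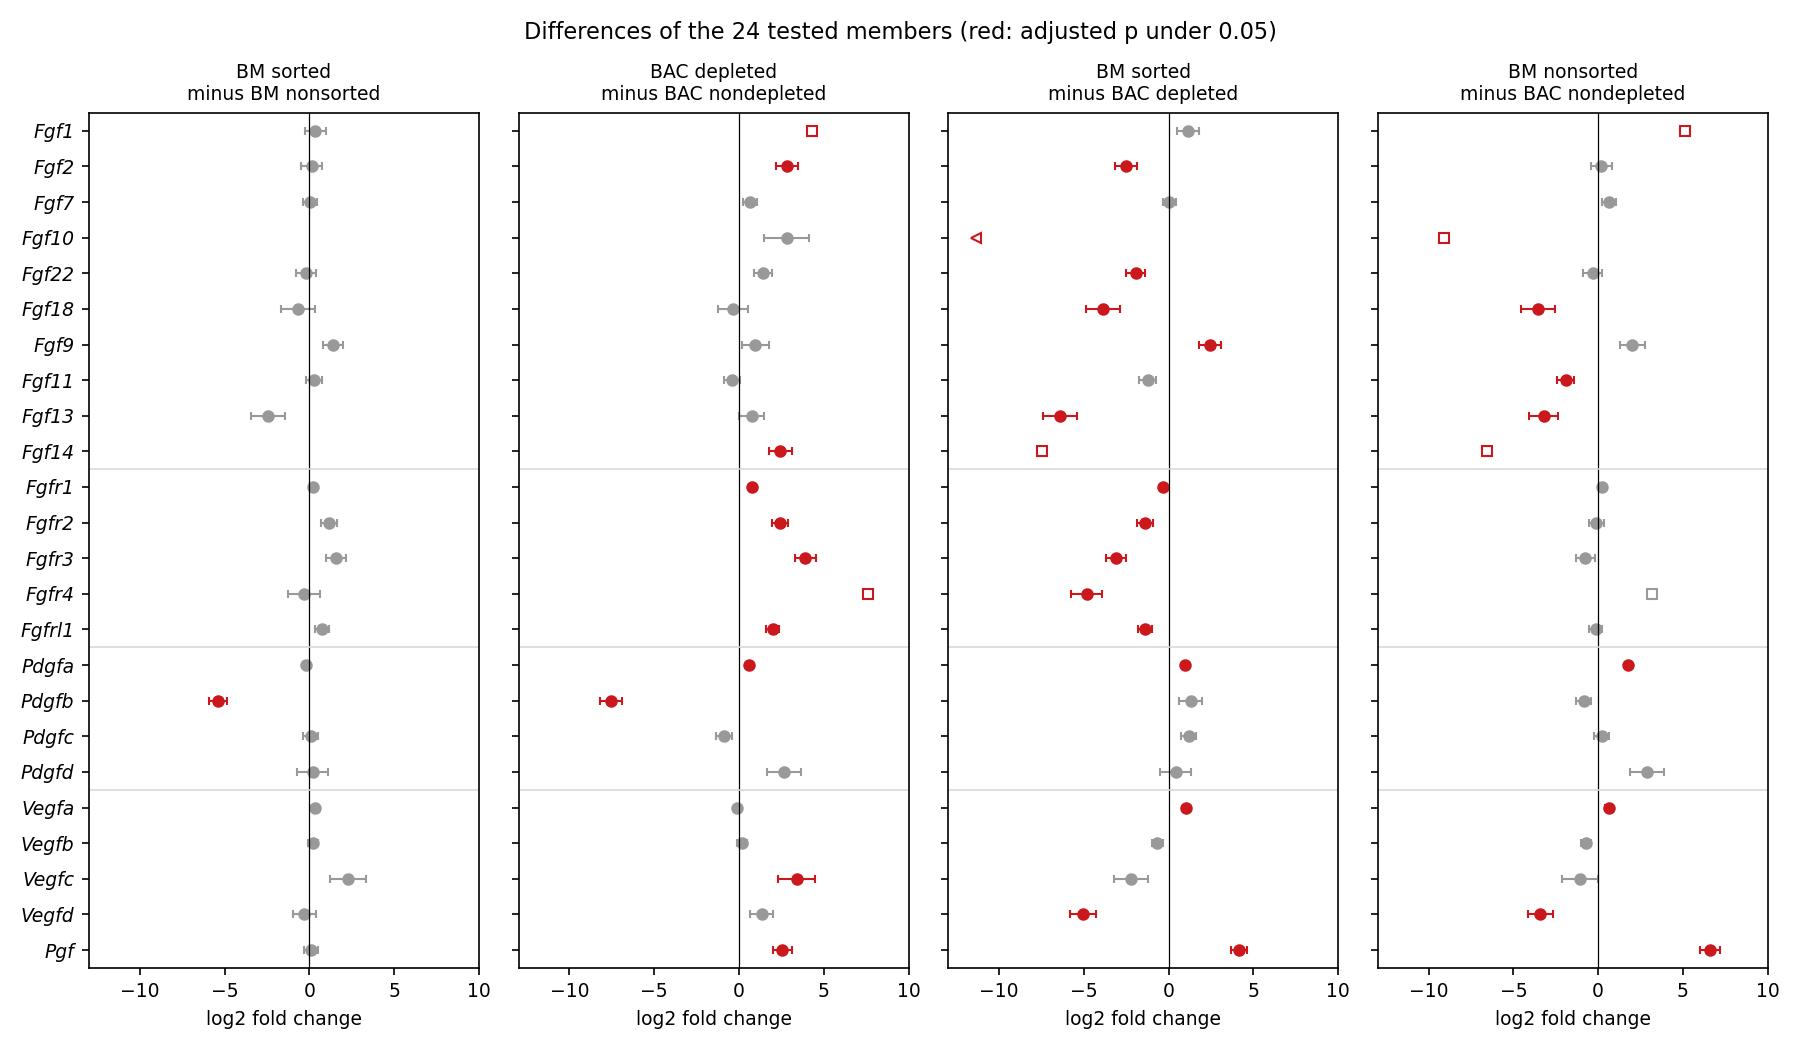
Log2 fold changes of the 24 tested members in the 4 comparisons of groups, with SE bars, red where called and grey where not. Squares are ratios of summed counts where a group held 1 to 3 counts, the triangle is a bound that takes 3 counts as the floor, and no symbol is drawn where both groups were at or under that floor; the sorting panel holds 1 red point, Pdgfb, and the depletion panel 12.

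The receptors for the PDGF and VEGF ligands were read from a list of 7 genes, all tested. On sorting none rose and 1 fell, where 6.23% of all tested genes were called. On depletion 1 rose and 1 fell, where 37.3% of all tested genes were called. The gene that fell each time was Kdr, the main VEGFA receptor of endothelial cells. Kdr read 3.08, 2.32 and 2.14 CPM in BM nonsorted and at most 0.120 CPM in BM sorted (-5.24 ± 0.59, adjusted p = 0.000177), and 7.12, 7.89 and 3.81 CPM in BAC nondepleted and at most 0.0636 CPM in BAC depleted (adjusted p = 1.73e-05). With 3 counts over BAC depleted, the count ratio of Kdr on depletion was 177 in favour of BAC nondepleted (60.1 to 860), or 331 without BAC depleted 1. The Kdr value for sorting was -6.10 without BM sorted 2. Neither pair overlapped, and the macrophage marker sums given above fell in the same libraries, a part that was not tested. Pdgfrb, the receptor of PDGF-B and PDGF-D, read 191, 309 and 216 CPM before and 379, 914 and 428 CPM after depletion (1.27 ± 0.33, adjusted p = 0.0123), a call lost without BAC nondepleted 1 (1.12, adjusted p = 0.0515), and 0.75 was the value without BAC depleted 2.

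Between the purified groups, 1 of the 7 receptors was higher in BM sorted and 1 in BAC depleted, where 47.4% of all tested genes were called. Flt4, the receptor of VEGFC and VEGFD, read 4.26, 6.38 and 2.67 CPM in BM sorted and 0.318, 0.495 and 0.125 CPM in BAC depleted (3.79 ± 0.62, adjusted p = 0.000861). Its ligand Vegfd was high where Flt4 was low. Pdgfra, the receptor of PDGF-A and PDGF-C, was lower in BM sorted, at 212, 113 and 131 CPM against 506, 587 and 273 CPM (-1.58 ± 0.40, adjusted p = 0.00858), and it was high where Pdgfa was low. Both calls held without each library in turn. Between the unpurified groups 1 was higher and 2 lower in BM nonsorted (14.9% and 16.8% of all tested genes). Flt4 was higher (2.19 ± 0.59, adjusted p = 0.0188), and Pdgfra (-1.40 ± 0.40, adjusted p = 0.0236) and Kdr (-1.32 ± 0.44, adjusted p = 0.0425) were lower. The 10 macrophage markers were all called lower in BM nonsorted as well, at a median log2 fold change of -1.345, and their part was not tested. The call for Kdr was lost in 6 of the 12 omissions, with an adjusted p of up to 0.146. That for Flt4 was lost without BM nonsorted 1 (1.91, adjusted p = 0.062) or BAC nondepleted 2 (2.15, adjusted p = 0.0644) and was 2.78 without BAC nondepleted 1, and that for Pdgfra was lost without BM nonsorted 2 (-1.26, adjusted p = 0.0859), BM nonsorted 3 (-1.35, adjusted p = 0.0688) or BAC nondepleted 1 (-0.94, adjusted p = 0.0928).

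Of the 12 heparan sulphate and klotho co-receptors and binding proteins, 8 were tested. On sorting 0 were called (6.23% of all tested genes were), and on depletion 2 rose (17.4% did). Between the purified groups 3 were higher and 3 lower in BM sorted (22.9% and 24.6% of all). The syndecan Sdc1 was higher (1.5 ± 0.34, adjusted p = 0.00528), as was Sdc3 (1.26 ± 0.28, adjusted p = 0.0044), while Sdc2 (-1.5 ± 0.27, adjusted p = 0.00154) and Sdc4 (-1.49 ± 0.34, adjusted p = 0.00529) were lower, so the niches differed in which syndecan they held more of. The glypican Gpc6 rose on depletion by 2.23 ± 0.46 (adjusted p = 0.00446), or by 1.38 without BAC depleted 2, and Gpc4 by 1.03 ± 0.27 (adjusted p = 0.0144), a call lost without BAC nondepleted 1 (0.84, adjusted p = 0.0566) or BAC nondepleted 2 (0.93, adjusted p = 0.0591). Of the 8 adaptor and relay genes, 0 rose and 1 fell on sorting, where 6.23% of all tested genes were called. On depletion 2 rose and 1 fell, where 37.3% of all tested genes were called, about the same share. The one that fell was Grb2, the adaptor that links receptors to RAS, with -0.57 ± 0.10 on sorting (adjusted p = 0.0045) and -0.95 ± 0.10 on depletion (adjusted p = 6.41e-05). The docking proteins Frs2 (0.50 ± 0.12, adjusted p = 0.00886) and Frs3 (0.97 ± 0.27, adjusted p = 0.0179) rose. The call for Frs3 was lost without BAC nondepleted 1 (0.89, adjusted p = 0.0641), BAC nondepleted 3 (0.84, adjusted p = 0.0649) or BAC depleted 1 (0.68, adjusted p = 0.0531). The macrophage sums fell in the libraries where Grb2 fell, a part that was not tested.

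Transcripts induced by ERK signalling include feedback inhibitors of FGF receptors. On depletion 1 of the 10 rose and 4 fell, with a list median of -0.82 against 0.05 for all tested genes, of which 17.4% rose and 19.9% fell. In the same libraries the macrophage markers fell from 6703 to 8611 CPM in sum to 3.93 to 5.37 CPM, 10 of 10 being lower, and their part in this and the following lists was not tested. Dusp4, an ERK phosphatase, read 8.29, 11.2 and 13.3 CPM in BAC nondepleted and 0.922, 1.63 and 0.458 CPM in BAC depleted, without overlap (-3.43 ± 0.44, adjusted p = 0.000247). Spred1 (-1.20 ± 0.16, adjusted p = 0.000347), Spred2 (-0.86 ± 0.12, adjusted p = 0.000321) and the ETS factor Etv5 (-1.45 ± 0.27, adjusted p = 0.0021) also fell. Spry4, an inhibitor of receptor signalling, rose by 1.44 ± 0.50 (adjusted p = 0.0454), a call lost in 11 of 12 omissions, among them BAC depleted 2 (0.85, adjusted p = 0.175). On sorting 1 of the 10 was called, against 6.23% of all tested genes. It was Etv5, which was lower (-1.04 ± 0.26, adjusted p = 0.0442), a call lost in 8 of 12 omissions with an adjusted p of up to 0.177.

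Between the purified groups, 4 of the 10 ERK-induced transcripts were higher and 2 lower in BM sorted (22.9% and 24.6% of all tested genes), with a list median of 0.13. Dusp4 was higher by 3.83 ± 0.44 (adjusted p = 0.000142), and the related inhibitors Spry1 and Spry2 differed in opposite directions, by 2.54 ± 0.62 (adjusted p = 0.00758) and -2.66 ± 0.39 (adjusted p = 0.000519). Of the proteases that process PDGF and VEGF ligands, 5 of 6 were tested. On depletion none of these rose and 3 fell: Plat, tissue plasminogen activator, which activates PDGF-C (-2.16 ± 0.48, adjusted p = 0.00591, and -2.85 without BAC depleted 3), Plau, urokinase, which can activate PDGF-D (-1.77 ± 0.25, adjusted p = 0.000429), and the proprotein convertase Furin (-0.51 ± 0.13, adjusted p = 0.0135), whose call was lost without BAC nondepleted 2 (-0.43, adjusted p = 0.0559). Plau fell on sorting too (-1.45 ± 0.25, adjusted p = 0.00392), as 1 of 5. Of all tested genes 6.06% fell on sorting and 19.9% on depletion. The macrophage sums fell in both of these comparisons.

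Because Vegfa is induced by hypoxia, other hypoxia-induced transcripts were read from a list of 10, of which 9 were tested. On sorting 0 were called, where 6.23% of all tested genes were. On depletion 1 rose and 6 fell, with a list median of -0.92 against 0.05 for all tested genes. Of all tested genes 17.4% rose and 19.9% fell on depletion. The macrophage markers fell in these libraries by the sums given above. Egln3, an oxygen-sensing hydroxylase, read 49.5, 80.6 and 31.1 CPM in BAC nondepleted and 11.4, 12.6 and 12.5 CPM in BAC depleted, without overlap (-2.14 ± 0.29, adjusted p = 0.000313). Pgk1, a glycolytic enzyme, fell (-0.92 ± 0.23, adjusted p = 0.0106), as did Pdk1, which limits entry of pyruvate into mitochondria (-1.19 ± 0.20, adjusted p = 0.0014). Ankrd37 fell too (-1.34 ± 0.31, adjusted p = 0.00705). The glucose transporter Slc2a1 (-0.77 ± 0.23, adjusted p = 0.0223) lost its call without BAC nondepleted 2 (-0.73, adjusted p = 0.0649) or 3 (-0.65, adjusted p = 0.0756). The mitophagy factor Bnip3 (-0.92 ± 0.27, adjusted p = 0.0239) lost it in 4 of the 12 omissions, BAC nondepleted 2 or 3 and BAC depleted 1 or 2, with an adjusted p of up to 0.0894. The gene that rose was Ndrg1 (1.09 ± 0.38, adjusted p = 0.0465), a call lost in 8 of 12 omissions with an adjusted p of up to 0.121. Vegfa itself was not called on depletion (-0.10 ± 0.20, adjusted p = 0.722).

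Between the purified groups 5 of the 9 hypoxia-induced transcripts were higher in BM sorted, as Vegfa was, and 2 were lower (22.9% and 24.6% of all tested genes). Egln3 was higher by 2.99 ± 0.29 (adjusted p = 6.77e-05), whereas Ndrg1 was lower (-5.07 ± 0.45, adjusted p = 4.27e-05). Between the unpurified groups 0 were higher and 2 lower in BM nonsorted (14.9% and 16.8% of all tested genes). The labels give hypoxia for the marrow cultures and say nothing of the oxygen or culture of the bone-associated cells, so niche and culture cannot be told apart in either niche comparison.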

How the data were processed

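The authors deposited raw read counts per gene for 12 libraries. Alignment and counting tools named in the submitters' processing notes are STAR 2.7.9a and featureCounts (Subread 2.0.1), beside MultiQC 1.7 and the genome build GRCm39. Neither the annotation nor the strandedness of the counting is given in the sources used here, so genes with overlapping exons, 11 of the 36 members by GENCODE M21 (GRCm38), are uncertain. Groups follow the labels, which do not say whether libraries of a group came from separate animals, so p-values measure only the spread between these samples.

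The counts were fitted in edgeR 4.0.16 (R 4.3.3) with TMM scaling, filterByExpr, 1 model of 4 group means over 12 libraries (8 residual degrees of freedom) and quasi-likelihood F tests with robust dispersions, adjusted by Benjamini-Hochberg over 15698 genes. The SE of a log2 fold change is its size over the square root of F. Levels are CPM on TMM-scaled sizes, and levels per kilobase use the merged length of all GENCODE M21 exons of a gene. Groups with 1 to 3 counts got a 95% counting interval of the ratio, and groups with 0 counts a bound from a floor of 3 counts, both for counting error only. The script was tested on simulated data. Other settings tried were upper quartile scaling, the size factors and the Wald test of DESeq2 1.42.0, no or a stricter low-count filter (1 CPM in 3 libraries), only the groups compared, a replicate block and leaving out each library. The members, the lists of other genes and the rule that all members are accounted for and a called gene of a list may be named were chosen with earlier results of these data known. GRCm38.p6 coordinates belong to the printed windows only.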

Additional observations from a re-analysis of the deposited data

Results flagged for a closer look

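For 6 genes the effect of sorting differed from that of depletion by the test of the difference itself. In log2 units, sorting minus depletion was -7.79 for Fgfr4 (adjusted p = 0.0169) and -0.83 for Pdgfa (adjusted p = 0.0486). Among the pathway genes it was 3.26 for Dusp4 (adjusted p = 0.0106), 0.76 for Spred2 (adjusted p = 0.022), 2.41 for Egln3 (adjusted p = 0.00795) and 1.12 for Pdk1 (adjusted p = 0.0413). These 4 fell on depletion and were not called on sorting. The calls for Dusp4 and Egln3 held without each of the 12 libraries in turn. That for Spred2 was lost without BM nonsorted 2 (0.75, adjusted p = 0.0622), BM nonsorted 3 (0.73, adjusted p = 0.0515), BM sorted 3 (0.74, adjusted p = 0.0645) or BAC nondepleted 2 (0.78, adjusted p = 0.0506). That for Pdk1 was lost in 10 of the 12 omissions, with an adjusted p of up to 0.102.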

How the results depend on the processing

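The number of members called for sorting was 1 under each setting other than leaving out a library, where it was 1 to 2. For depletion it was 8 to 16 (12 as reported) and between the purified groups 12 to 19 (16 as reported). The members tested varied too, from 20 to 32 (24 as reported). For depletion, 8 of 22 were called with only the groups compared (3556 of all genes) and 16 of 27 without BAC depleted 3 (5990). Between the purified groups, 12 of 26 were called without BM sorted 3 (5678). There 19 were called of 27 without BAC depleted 1 (7382) and of 24 with the DESeq2 Wald test (7919). Between the unpurified groups, where 10 were reported, the number called was 16 of 21 with only the groups compared (6225 of all genes). On leaving out a library it was 6 to 13. For the difference of the effects, where 2 were reported, it was 1 with DESeq2 size factors, 1 with upper quartile scaling, 1 without a low-count filter, 8 with the DESeq2 Wald test and 0 to 4 on leaving out a library. The cause of these moves was not tested. No called value of a member changed sign; of the member values under alternatives, 2100 stayed on their side of the threshold, 54 crossed to a call and 80 lost one. Over all genes, calls for depletion were 3556 with only the groups compared, against 5863, and those for the difference 2446 with the DESeq2 Wald test, against 1266. Upper quartile scaling moved the median of all genes for depletion from 0.05 to 0.13.

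In their deviations from the group means, 3 of 18 same-number pairs of libraries and 3 of 36 others correlated above 0.1. The same-number pairs of BAC nondepleted and BAC depleted correlated at 0.237, 0.0439 and 0.0711. Those of BM nonsorted and BM sorted correlated at -0.223, 0.215 and -0.00827. BAC depleted 1 held 43406 Xist and 0 Y-linked counts and BAC nondepleted 1 held 2 and 8419, so this pair did not share its animals. Whether the numbers pair the other libraries, or mark another shared factor, cannot be told from these few values. With the replicate block, members called were 1 for sorting, 10 for depletion, 14 and 11 for the purified and unpurified groups and 1 for the difference, and calls over all genes for the difference were 808. Low counts limit Fgf1, Fgf10, Fgf14 and Fgfr4 in the groups with 0 to 3 counts.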
